A study of Mus musculus with 18 samples.

Results

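The 7 metabotropic glutamate receptor genes Grm2 to Grm8 were examined in a consensus list of accessible sites from mouse cortical neurons. Every listed interval with a base in a receptor gene or in the 50 kb on either side of it was taken, with gene ends from RefSeq GRCm38.p6, the assembly that mm10 names. The windows held 198 of the 211682 peaks in the list, 138 of them in the receptor genes and 60 in the flanks, and no peak fell in 2 windows. The assay, ATAC-seq with paired reads of 50 bp, maps open DNA by where a transposase inserts sequencing adapters. The neurons came from cortices of CD1 mouse embryos at embryonic day 14.5 to 15, received the mitotic inhibitor cytosine arabinoside at 2 µM and lentiviral short hairpin RNAs on day 6, and were taken on day 11.

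The 18 samples form 4 groups. A hairpin against Opa1, a GTPase of mitochondrial inner membrane fusion, was given with one against Atf4, a transcription factor of the integrated stress response, in 5 samples (shOpa1, shAtf4). The Atf4 hairpin was given with a control hairpin in 3 samples (shControl, shAtf4), and the Opa1 hairpin with a scrambled hairpin in 5 (shOpa1, shScrambled). The remaining 5 samples received the control and scrambled hairpins (shControl, shScrambled). All cultures thus carried a pair of lentiviral hairpins, and the labels do not say whether samples of a group came from separate litters or cultures. The design asks which sites change with Atf4 knockdown, with and without Opa1 knockdown. The peak list carries no values of single samples or groups, so no knockdown was compared, no value below has a standard deviation over samples, and the read depth is unknown. The results describe where the receptor genes were accessible in the pooled consensus set.

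Metabotropic glutamate receptors are G protein-coupled receptors for the transmitter glutamate. Group I receptors, here Grm5 (mGlu5), act through Gq and phospholipase C and lie mostly at the postsynaptic membrane; the other group I gene was not analysed here. Group II (Grm2 and Grm3, encoding mGlu2 and mGlu3) and group III (Grm4, Grm6, Grm7 and Grm8) act through Gi and Go, inhibit adenylyl cyclase and mostly restrain transmitter release. Grm6 is set apart from the rest of group III here because mGlu6 is known from retinal ON bipolar cells, where its activation closes the channel Trpm1.

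All 7 receptor genes had a peak within 1000 bp of the gene start, as did 69.0% of 21774 nuclear protein-coding genes (exact Clopper-Pearson 95% interval 68.4 to 69.6%). That share rose with gene length, from 57.6% under 20 kb and 80% at 20 to 100 kb to 89.2% at 100 to 500 kb. It was 93.4% at 500 kb or more. Grm2 and Grm6 are under 20 kb, and Grm5, Grm7 and Grm8 are 500 kb or more. At either outermost end, 7 of 7 receptor genes and 70.4% of protein-coding genes had one. The start was taken from the RefSeq promoter table for the 5 genes found there, and either outermost end was used for Grm4 and Grm5. The same rule held for every other gene, so without a listed start a peak at either end counted as a start peak. Among these 5 genes the listed start of Grm6 was not under a peak and the others were, so the 250 bases before the outermost listed start are shown for those 5 genes, 5′ to 3′ on the gene's own strand (RefSeq, GRCm38.p6). Capitals mark every match to the motifs named after the sequences. The stretches are chr9:106656110-106656359 (minus strand) for Grm2, chr5:9725353-9725602 (minus) for Grm3, chr6:110645262-110645511 (plus) for Grm7, chr6:28135147-28135396 (minus) for Grm8 and chr11:50850435-50850684 (plus) for Grm6.
Grm2: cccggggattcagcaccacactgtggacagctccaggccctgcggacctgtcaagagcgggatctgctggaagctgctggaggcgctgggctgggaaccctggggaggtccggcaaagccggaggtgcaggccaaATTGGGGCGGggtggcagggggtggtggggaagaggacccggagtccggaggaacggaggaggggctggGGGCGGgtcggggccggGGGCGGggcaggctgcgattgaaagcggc
Grm3: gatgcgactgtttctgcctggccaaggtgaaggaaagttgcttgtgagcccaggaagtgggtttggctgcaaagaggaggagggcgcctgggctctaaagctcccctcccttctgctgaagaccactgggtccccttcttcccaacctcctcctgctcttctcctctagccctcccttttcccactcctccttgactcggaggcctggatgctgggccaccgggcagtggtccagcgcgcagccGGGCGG
Grm7: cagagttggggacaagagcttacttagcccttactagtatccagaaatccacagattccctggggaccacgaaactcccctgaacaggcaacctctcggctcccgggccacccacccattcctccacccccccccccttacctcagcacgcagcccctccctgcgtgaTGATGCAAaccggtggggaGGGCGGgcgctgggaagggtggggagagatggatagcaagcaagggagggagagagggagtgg
Grm8: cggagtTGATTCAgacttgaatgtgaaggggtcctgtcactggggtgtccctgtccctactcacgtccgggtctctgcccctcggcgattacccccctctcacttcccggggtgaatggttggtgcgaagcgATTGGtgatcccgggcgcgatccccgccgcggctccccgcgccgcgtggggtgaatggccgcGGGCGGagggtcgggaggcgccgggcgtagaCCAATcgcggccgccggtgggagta
Grm6: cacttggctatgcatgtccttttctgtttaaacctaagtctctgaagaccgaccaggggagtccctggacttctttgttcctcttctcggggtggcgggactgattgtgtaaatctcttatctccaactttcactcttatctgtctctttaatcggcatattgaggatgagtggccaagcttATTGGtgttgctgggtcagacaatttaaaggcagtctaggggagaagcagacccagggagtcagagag
All 250 bases lay under a peak in Grm2, Grm3, Grm7 and Grm8, and 0 did in Grm6.

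The Grm6 stretch was also the poorest of the 5 in CpG dinucleotides. Grm8 held 29 CpG and was 68.4% G and C, Grm2 held 16 CpG at 71.2%, Grm3 held 8 at 62.4% and Grm7 held 8 at 62%, against 4 CpG at 47.6% in Grm6. Over 17492 protein-coding genes with a listed start, the median stretch held 10 CpG. That median was 18 CpG where the start window (250 bases before to 50 after the start) lay wholly under a peak and 2 CpG where no base of it did. Grm3 and Grm7 were thus fully covered with fewer CpG than the usual covered start.

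Motif letters were searched on both strands of these stretches. The GC box GGGCGG, bound by Sp factors, matched in Grm2 (3 times), Grm3, Grm7 and Grm8 and in 42.7% of the 17492 stretches. The CCAAT box CCAAT matched in Grm2, Grm8 (2 times) and Grm6 and in 36.5% of stretches; in Grm2 its reverse complement shares a base with a GC box. The AP-1 motif TGANTCA matched once, in Grm8, and in 6.18% of stretches. The composite motif TGATGNAA of Atf4 and C/EBP factors matched once, in Grm7, and in 3.26% of stretches. That match, TGATGCAA at chr6:110645430-110645437, lay under the Grm7 start peak, 75 to 82 bases before the outermost listed Grm7 start. The outermost lower end of Grm7, at position 110645349, lies before the match, so the match falls within the annotated gene. The match also lay 30 to 37 bases before the start of Gm20387, a long noncoding RNA gene on the opposite strand whose start falls under the same peak. The full cyclic AMP response element TGACGTCA, in 1.98% of stretches, and its core TGACG, in 20.2%, were not in these 5. The same held for the TATA box TATAAA, in 12.4% of stretches. It also held for TAATCC, bound by Otx and Crx homeodomain factors and found in 5.95%. The palindromes searched for NRF1 and MEF2, in 1.06% and 3.05% of stretches, were not in these 5 either. Whether any factor binds there was not measured.

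**Figure D1:**
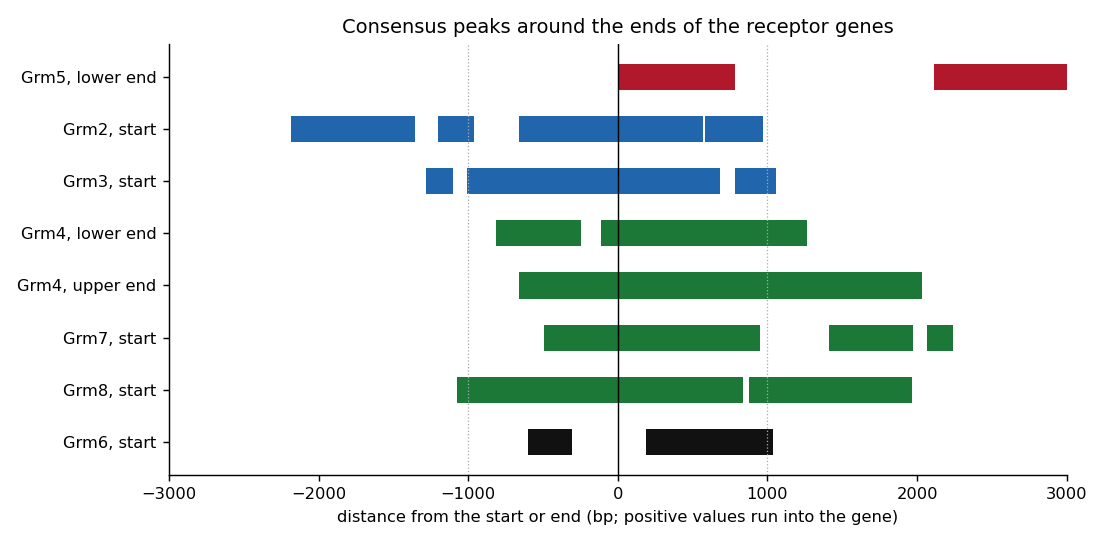
Consensus peaks (bars) around the start, or around the lower- or upper-coordinate end for Grm5 and Grm4, with distance in bp on the x axis, positive values running into the gene and dotted lines at 1000 bp. Peaks spanned the zero line in Grm2, Grm3, Grm4, Grm7 and Grm8, began 8 bp inside it in Grm5, and lay on both sides of it in Grm6.

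The peaks over the outermost listed start were wide in Grm2, Grm3, Grm7 and Grm8. In Grm8 a peak of 1914 bp ran from -1077 to 836 bp around the outermost start, and a second of 1088 bp followed it from 875 to 1962 bp. In Grm3 the peak was 1690 bp wide (-1006 to 683 bp), in Grm7 1440 bp (-491 to 948 bp) and in Grm2 1231 bp (-662 to 568 bp). The median peak of the whole list was 425 bp wide, with quartiles of 308 and 625 bp. These 4 start peaks therefore all exceeded the upper quartile, and 818 peaks of the list were wider than the one at Grm8. The 9 flank peaks at ends of other protein-coding genes had a median width of 826 bp (232 to 2313 bp). Widths were not compared with start peaks over all genes. The 300-base start window was wholly under a peak in Grm2, Grm3, Grm7 and Grm8, as in 53.2% of protein-coding genes with a listed start. The innermost listed start of Grm8, at chromosome 6 position 28126426, had no peak within 1000 bp.

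Grm4, which encodes the presynaptic receptor mGlu4, was accessible at both ends. The peak over its upper-coordinate end was 2691 bp wide (chr17:27511794-27514484), the widest in the 7 windows, and 32 of the 211682 peaks were wider. The lower end lay under a peak of 1378 bp (chr17:27422274-27423651), with another of 571 bp beside it. No other receptor gene had a peak within 1000 bp of both ends, which 20.6% of protein-coding genes had. Grm5 had a narrower peak of 773 bp that began 8 bp inside its lower end (chr7:87583989-87584761), and a wider one of 1079 bp lay 2112 to 3190 bp inside. Its upper end had no peak within 1000 bp.

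Grm6 was the exception among the 5 genes with a listed start. A peak of 297 bp lay from -603 to -307 bp and one of 844 bp from 190 to 1033 bp, so the start base itself was not under a peak. No base of its start window was covered, as in 36.0% of protein-coding genes with a listed start, and the start base was under a peak in 62.5% of them. The outermost lower end of Grm6 lies 316 bp before the listed start, and 10 bases of the gene from that end lay under the 297 bp peak. The gap thus concerns the listed start, and the neighbourhood of Grm6 was accessible in these cultures.

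The genes differ greatly in size, so peaks were also counted per 100 kb. Within the gene, Grm2 (11.6 kb) had 3 peaks, Grm4 (91.4 kb) 17, Grm3 (240 kb) 16, Grm8 (860 kb) 40, Grm5 (551 kb) 24 and Grm7 (922 kb) 36, and Grm6 (15.8 kb) had 2. As a rate this gave 25.9 peaks per 100 kb in Grm2 (exact Poisson 95% interval 5.34 to 75.7) and 18.6 in Grm4 (10.8 to 29.8). It gave 6.66 in Grm3 (3.81 to 10.8), 4.65 in Grm8 (3.32 to 6.33), 4.36 in Grm5 (2.79 to 6.48) and 3.91 in Grm7 (2.74 to 5.41), and 12.6 in Grm6 (1.53 to 45.6). The wide interval of Grm2, from 3 peaks, overlapped those of all the other receptor genes. The intervals of Grm3, Grm8, Grm5 and Grm7 also overlapped each other. The intervals of Grm4 and Grm3 met at 10.8, and that of Grm4 lay above those of Grm8, Grm5 and Grm7. The intervals cover counting error only and treat peaks as independent. The rate in Grm6 rests on its 2 start peaks and could not be told apart from any other receptor gene.

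**Figure D2:**
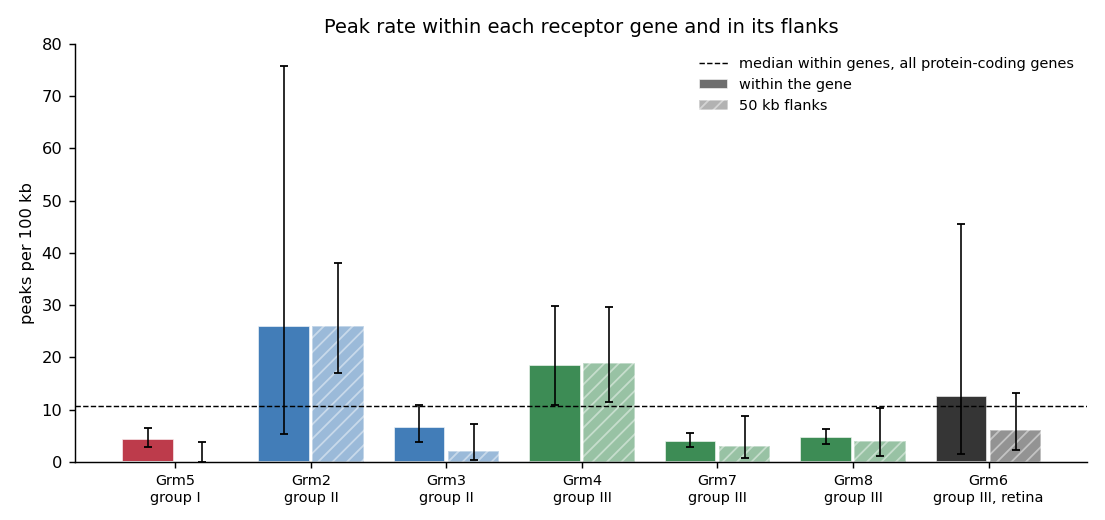
Peaks per 100 kb (y axis) within each receptor gene (solid bars) and in its 50 kb flanks (hatched bars), with exact Poisson 95% intervals; the dashed line is the median within all protein-coding genes, 10.7. Grm2 and Grm4 stand above the line in the gene and the flanks, while Grm5, Grm3, Grm7 and Grm8 stand below it in both.

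Whole windows gave the rates of the pharmacological groups. Group I (Grm5) had 24 peaks, or 3.69 per 100 kb (exact Poisson 95% interval 2.36 to 5.48). Group II had 47, or 10.4 (7.65 to 13.8), and group III without Grm6 had 119, or 5.48 (4.54 to 6.55). The Grm6 window had 8, or 6.91 (2.98 to 13.6), and the median window of protein-coding genes had 10.3. Members of a group did not share a rate. In group II, Grm2 had 26 peaks per 100 kb of window (17.4 to 37.3) and Grm3 had 5.29 (3.14 to 8.36). In group III, Grm4 had 18.8 (13.2 to 26), Grm8 4.58 (3.33 to 6.15) and Grm7 3.82 (2.71 to 5.22). Both spreads within a group were wider than the differences between group rates. Grm2 stood at the 97.3 percentile of protein-coding genes and Grm4 at the 86 percentile, and the other 5 lay between the 18.7 and 32.2 percentiles.

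Part of this contrast lay in the flanks. The Grm2 flanks held 26 peaks, 9 of them inside Tex264, which encodes a receptor for autophagy of the endoplasmic reticulum. A further 4 lay at ends of Tex264, Rad54l2 and Iqcf6, the widest 1535 bp over the Tex264 start. The remaining 13 lay outside protein-coding genes, 1 of them within 1000 bp of the Grm2 start. The Grm4 flanks held 19 peaks, among them one of 2313 bp over the start of Hmga1, which encodes an architectural chromatin protein; 2 more lay inside Hmga1. The flanks of Grm3, Grm7 and Grm8 held 2, 3 and 4 peaks, and those of Grm5 held none. Only 1.32% of 227 protein-coding genes of 500 kb or more, and 8.40% of all protein-coding genes, had no peak in both flanks. Another 50 kb on each side brought 5 more peaks to the Grm5 window, so its surroundings were sparse and not empty.

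The Grm6 flanks held 6 peaks, and 4 of them lay at ends of neighbouring zinc finger genes. A peak of 1257 bp lay at ends of Zfp354c and Zfp879, and peaks of 744, 1154 and 774 bp lay over the starts of Zfp879, Zfp454 and Zfp2. Of the rest, 1 lay inside Zfp2 and 1, of 202 bp, stood between genes from -3528 to -3327 bp of the Grm6 start. Without peaks within 1000 bp of an outermost end of another protein-coding gene, group II had 9.52 peaks per 100 kb, group III without Grm6 5.43 and group I 3.69, against 3.45 in the Grm6 window, from 4 peaks. Grm6 thus moved below group III and group I, within its wide interval.

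**Figure D3:**
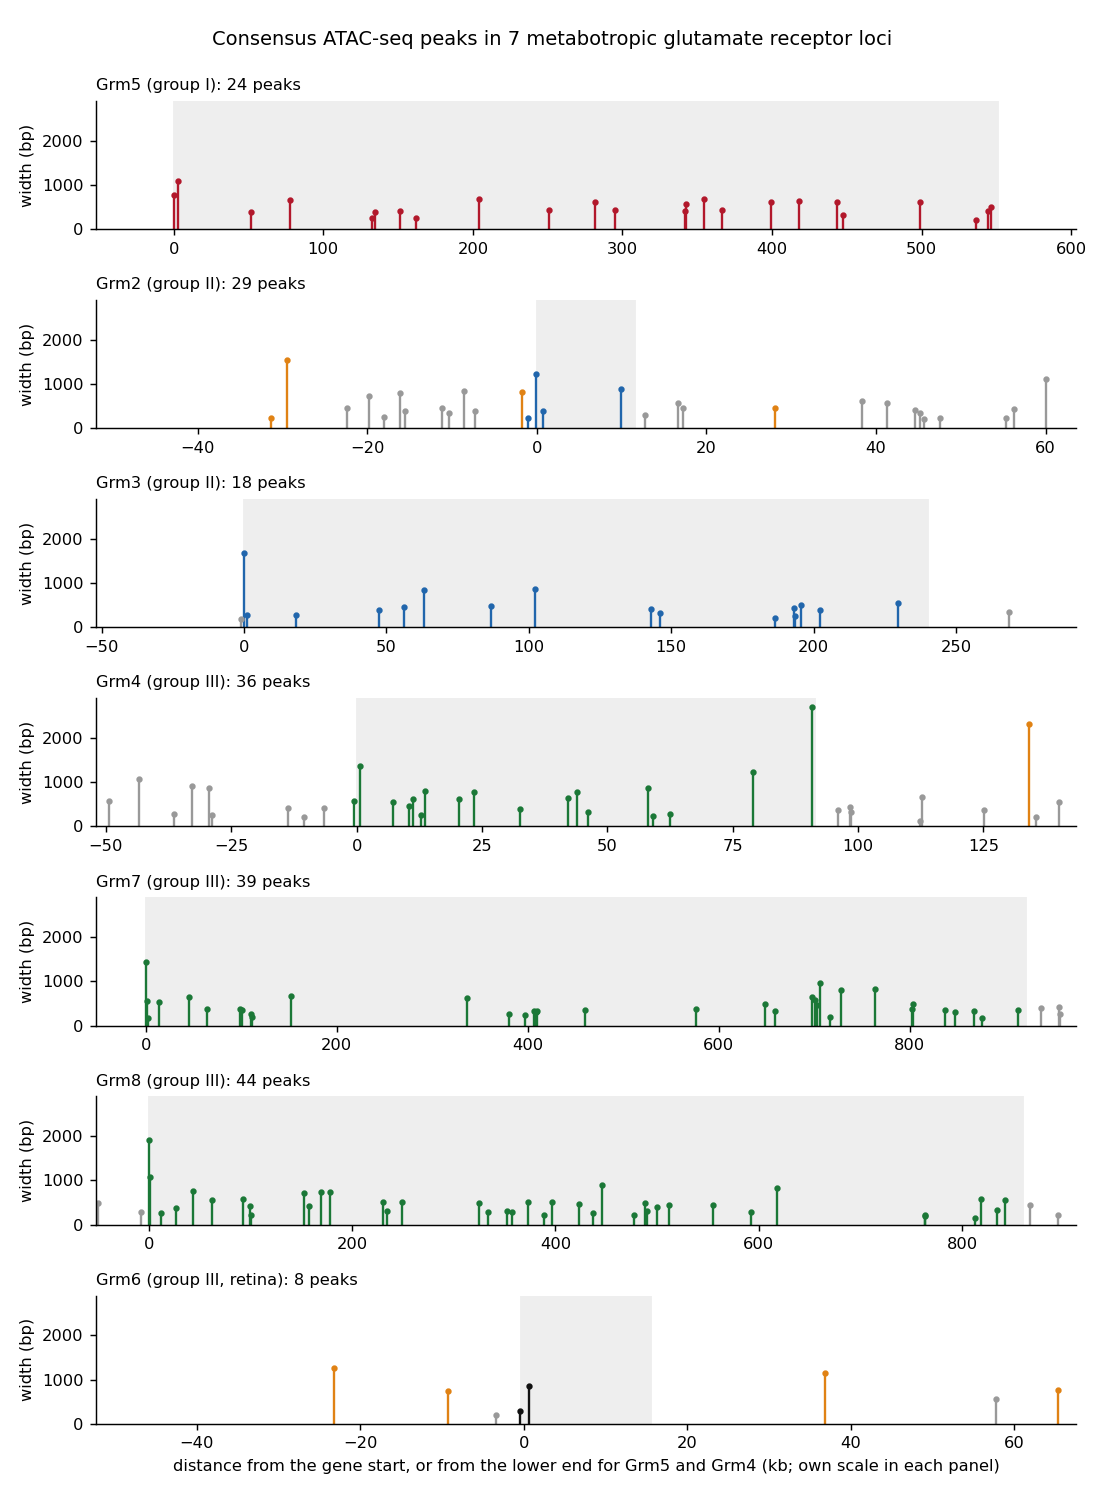
Width of each consensus peak (y axis, bp) by its distance from the gene start, or from the lower end for Grm5 and Grm4 (x axis, kb, a scale of its own in each panel). Shading marks the gene, orange marks flank peaks at ends of other protein-coding genes and grey marks other flank peaks; the widest peak in the Grm3, Grm7 and Grm8 panels stands at the start, and that of Grm4 at its upper end.

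The 3 largest receptor genes were sparse for their size. Grm8 had 4.65 peaks per 100 kb within the gene, Grm5 4.36 and Grm7 3.91, against a median of 8.15 and a lower quartile of 4.78 in protein-coding genes of 500 kb or more. All 3 lay below that quartile, at the 23.1 percentile for Grm8, the 20.9 for Grm5 and the 17.4 for Grm7. Grm3 stood at the 24.8 percentile of genes of 100 to 500 kb, while Grm4 stood at the 80.3 percentile of genes of 20 to 100 kb. Among genes under 20 kb, Grm2 stood at the 73.5 percentile and Grm6 at the 51.6. Peaks covered 1.75% of Grm7, 2.19% of Grm8, 2.24% of Grm5 and 3.07% of Grm3, against 16% of Grm2 and 13.3% of Grm4, and 5.39% of Grm6. The median over all protein-coding genes was 5.43%.

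**Figure D4:**
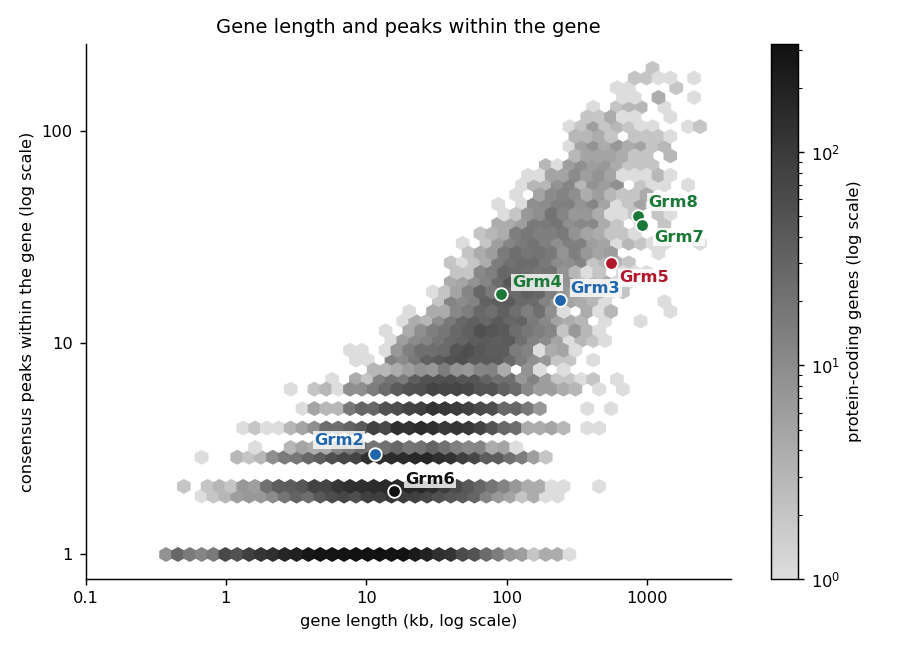
Consensus peaks within the gene (y axis, log scale) by gene length (x axis, kb, log scale), with grey hexagons counting protein-coding genes and coloured points the receptors; 4925 genes with no peak are not drawn. Grm5, Grm7 and Grm8 lie in the lower part of the cloud for their length, and Grm4 in its upper part.

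Interior peaks, those in a gene and away from its ends or listed starts, numbered 126 and had a median width of 430.5 bp, close to the 425 bp of the whole list. They were spread unevenly. Grm7, whose product sits in the presynaptic active zone, had a stretch of 184 kb without a peak (chromosome 6, 110798206 to 110981908), 19.9% of the gene. The longest such stretch had a median of 68 kb in genes of 500 kb or more, and Grm7 stood at the 92.3 percentile of that class. Past it, 4 peaks of 303 to 340 bp lay between 406597 and 409465 bp from the Grm7 start. A second cluster of 5 peaks lay within 20 kb between 696995 and 716607 bp from the start, and its widest member was 966 bp. In 4 equal stretches of the gene from the start, Grm7 had 11, 8, 3 and 14 peaks.

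In Grm8 the peaks thinned toward the far end, with 13, 11, 10 and 6 in equal stretches from the start. Its longest stretch without a peak was 146 kb (chromosome 6, 27371425 to 27517178), at the 87.9 percentile of its length class. Grm5 was more even, with 6, 4, 7 and 7 from the lower end and a longest stretch of 54.1 kb, at the 39 percentile. Grm3, which is expressed by glia as well as neurons, had 5, 3, 2 and 6 from the start, and its widest interior peaks were 868 and 833 bp. Grm4 had 7, 4, 4 and 2 from the lower end, and its widest interior peak was 1228 bp (chr17:27500854-27502081). Its densest 20 kb held 7 peaks, against 5 in Grm3 and Grm7, 3 in Grm2, Grm5 and Grm8 and 2 in Grm6. The remaining peak of Grm2 was 896 bp wide and lay 85.9% of the way along the gene. Grm6 had no peak past its start peaks, over 14.5 kb or 91.5% of the gene.

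Of the 198 peaks, 3 had a deposited score below its ceiling of 1000, which 98.5% of the list reached. They were single interior peaks of Grm4, Grm7 and Grm8 of 264, 203 and 216 bp. The score therefore does not rank the receptor peaks.

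Grm8 also holds the microRNA gene Mir592, the only microRNA gene of the RefSeq table in the 7 windows (chromosome 6, 27936655 to 27936750, minus strand). Its mature sequences from RefSeq (GRCm38.p6) are shown with the seed, bases 2 to 8, in capitals.
mmu-miR-592-5p: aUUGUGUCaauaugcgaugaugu
mmu-miR-592-3p: uCAUCACGuggugacgcaacau
The nearest Grm8 peak, of 740 bp (chr6:27956218-27956957), lay 19.5 kb away, on the side of the Grm8 start. No base of the hairpin was under a peak.

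The signalling partners of these receptors were mostly accessible at their starts. Of 19 G protein and second messenger genes, 18 had a peak within 1000 bp of a start, the same window in which 69.0% of all protein-coding genes had one. The exception was Plcb3, which encodes a phospholipase C isoform. Among all protein-coding genes the share was 80% at 20 to 100 kb and 89.2% at 100 to 500 kb. Gnao1, the Go alpha subunit of the group II and III pathway, had the densest window of this list at 28.5 peaks per 100 kb, and Gnai1, a Gi alpha subunit, the sparsest at 6.15. All 15 scaffold and adhesion genes found had a start peak, and Tamalin was not matched by name. Gpr158, a class C receptor like the mGlu proteins, had the sparsest window at 4.26 peaks per 100 kb. The windows of group III had 18.8 for Grm4, 4.58 for Grm8 and 3.82 for Grm7, and 6.91 for Grm6. Elfn1 and Elfn2, which encode adhesion proteins that bind group III receptors across the synapse and were picked after their values were seen, had 26.3 and 27.1. The median window had 5.29 peaks per 100 kb for the 7 receptors, against 15 for the signalling list, 15.1 for the scaffold list and 10.3 for all protein-coding genes. The median gene lengths were 240 kb for the receptors, 115 kb for the signalling list and 67.1 kb for the scaffold list, so these sets differ in size.

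Of 10 genes that encode partners of mGlu6 in ON bipolar cells, 7 had a start peak, a share near the 69.0% of all protein-coding genes. Among them were the channel gene Trpm1 and the receptor partner Gpr179, whose start bases were both covered. Lrit3 and Pcp2 were among those with none. Nyx, which encodes the synaptic protein nyctalopin, had the sparsest window at 5.31 peaks per 100 kb, with a start peak but no covered start base, as in Grm6. Gpr179 had the densest at 23.3. The Grm6 window had 6.91 peaks per 100 kb, beside a median of 13 for the 10 partners. Of 10 genes of glutamate transport and metabolism, 8 had a start peak. Slc1a2, the main glial glutamate transporter gene, was among those with none. The vesicular transporter genes Slc17a7 and Slc17a6 had the densest and the sparsest window, at 21.4 and 4.69 peaks per 100 kb.

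The ionotropic glutamate receptor genes served as the nearest comparison. All 7 NMDA receptor genes and all 11 AMPA, kainate and delta receptor genes had a start peak, as did all 7 metabotropic receptor genes. The share was 69.0% over all protein-coding genes and 80% in those of 20 to 100 kb. It was 89.2% at 100 to 500 kb and 93.4% at 500 kb or more. The median window had 5.29 peaks per 100 kb for the metabotropic receptors, against 20.3 for NMDA receptors and 12.1 for AMPA, kainate and delta receptors. The median gene lengths were 240, 39.3 and 378 kb, so the sets differ in size as well. In the NMDA list Grin2d was densest at 25.1 and Grin3a sparsest at 5.27. In the other list Grik3 was densest at 26.2. Among genes of 500 kb or more, Grm5, Grm7 and Grm8 had 3.91 to 4.65 peaks per 100 kb within the gene, beside 4.16 in Grik2 and 13.4 in Grid1. A low rate in a large glutamate receptor gene was therefore also seen outside the metabotropic family, in Grik2, and no test of the difference between families was made.

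The label of the cultures was set against marker genes, with start peaks counted as before. All 10 pan-neuronal, 7 of 8 excitatory and all 8 inhibitory neuron markers had one. So did 5 of 8 astrocyte markers (not Aldh1l1, Gfap or Aqp4) and 5 of 8 oligodendrocyte lineage markers (not Cspg4, Sox10 or Mog). Of the 8 microglia markers, 4 had one (not P2ry12, Itgam, Cx3cr1 or Aif1). Those 4, Spi1, C1qa, Tmem119 and Csf1r, have no listed start, so a peak at either outermost end counted. None of the 4 microglia markers with a listed start had a start peak. Of 8 retinal bipolar and photoreceptor markers, 5 had one, and Crx and Nrl were among those that did not. All protein-coding genes had one in 69.0%, and 5 of 8 is 62.5% with an exact Clopper-Pearson 95% interval of 24.5 to 91.5%, so the astrocyte, oligodendrocyte lineage and retinal lists could not be told apart from that share. For 4 of 8 the interval is 15.7 to 84.3%, which also holds it. The intervals of the excitatory (47.3 to 99.7%) and inhibitory markers (63.1 to 100%) hold that share as well. For the 10 pan-neuronal markers the interval, 69.2 to 100%, began just above it. Their median length was 73.3 kb, however, and the interval holds the 80% of protein-coding genes of 20 to 100 kb. The pan-neuronal list could thus not be told apart from genes of that length. The densest and sparsest windows, in peaks per 100 kb, were Rbfox3 (30.7) and Dcx (8.45) among pan-neuronal and Slc32a1 (31.3) and Gad2 (10.4) among inhibitory markers. They were S100b (19.5) and Aqp4 (5.76) among astrocyte and C1qa (24.3) and Itgam (4.49) among microglia markers. The densest window was Neurod2 (33.6) among excitatory and Mbp (21.8) among oligodendrocyte lineage markers, and the sparsest was Crx (4.39) among retinal markers. A peak in a pooled list does not tell which cells were open, so the share of other cell types in the receptor peaks was not tested.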

How the data were processed

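The authors deposited 1 list of 211682 consensus ATAC-seq intervals in mm10 with a name and a score each; the deposited score has no stated scale. MSPC, which merges replicate peak calls, appears in the interval names, per the deposited list. MACS2, deepTools and MultiQC appear in the submitters' processing notes. The aligner, Tn5 shift, duplicate handling, thresholds and the samples behind the list were not given in the sources used here. A site open in a single knockdown group may or may not be listed, and depth and its precision are unknown.

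Intervals were made 1-based and counted where any base lay in a gene or its 50 kb flanks. Gene ends came from a RefSeq table (GRCm38.p6), without the genes on scaffolds or unplaced, which left 21774 nuclear protein-coding genes; starts and sequences came from its promoter table, which matched 17492 of them and 5 of 7 receptors. Of 134 listed genes, 133 were found. Rates have exact Poisson and shares exact Clopper-Pearson 95% intervals, for counting error only. Percentiles count ties at their midpoint and are descriptions. No test between knockdown groups was possible, so the count model foreseen for files with counts per sample was not run. Counting was tested on simulated intervals. Members, lists and alternatives were chosen with earlier results of these data known. The genes named are the members, protein-coding genes in their flanks, and of each list the densest and sparsest window and those without a start peak, some of which are not reported here; Elfn1, Elfn2, Trpm1, Grik2, Grid1, Gm20387 and Mir592 were added after values were seen. Tables were handled in pandas 2.3.3 and numpy 2.4.6 under Python 3.11.15, intervals came from scipy 1.17.1, and plots from matplotlib 3.10.9.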

Additional observations from a re-analysis of the deposited data

How the results depend on the processing

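Of 40 alternative values for the group rates, the total count and the count of genes with a start peak, 35 stayed within the Poisson interval of the reported rate or within 1.5 times the reported count. With peaks of at least 500 bp alone, the total was 79 peaks in place of 198, and the rates were 1.69 per 100 kb in group I, 3.32 in group II and 2.16 in group III without Grm6, since fewer peaks are counted. Without flanks, group II had 7.55 per 100 kb in place of 10.4. Grm2 had 25.9 per 100 kb in the gene and 26 in its flanks. Without flanks, however, it made up 11.6 of the 252 kb of group II, and Grm3, with 6.66 per 100 kb, made up the rest. All 7 genes had a start peak with windows of 500 and 2500 bp, as did 66.5% and 73.9% of protein-coding genes. All 7 also had one at either outermost end (70.4% of protein-coding genes) and with peaks of at least 500 bp (63%). With a peak over the start base or end itself, Grm5 and Grm6 had none and 5 of 7 remained, beside 61.8% of protein-coding genes. Of 49 counts for single receptor loci, 15 moved by over 1.5 times. The Grm6 rate rests on 8 peaks, and ran from 3.45 to 12.6 per 100 kb over the alternatives. No paired analysis was possible because the deposited list has no values per sample. Leaving out replicates was not possible for the same reason. The unknown depth limits what the absence of a peak can show.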
